A study of Homo sapiens and Mus musculus with 28 samples.

Results

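These data compare SCC1 cells labelled KO_2 and given H-151, an inhibitor of the innate immune adaptor STING, with SCC1 cells labelled R4KO_2 and given vehicle. The groups were taken from the sample labels, and each holds 3 libraries, so 6 of the 28 libraries in the series are described here. SCC1 is an established human line of head and neck squamous carcinoma. The series deals with loss of REXO4, an RNA exonuclease, in such tumours. Of its 28 libraries, 24 are from SCC1 and the other 4 are from mouse tumours and were not used.

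Of the SCC1 groups, 5 belong to the knockout experiment, with 3 libraries each: control cells with vehicle (Ctrl Vehicle), a pair of REXO4 knockouts that got vehicle (R4KO_1 and R4KO_2), and cells labelled KO_2 that got H-151 (KO_2 H151) or BX-795, an inhibitor of the kinase TBK1 and of other kinases (KO_2 BX_795). The 3 remaining SCC1 groups are Vehicle, iR4 and H151_iR4, where iR4 is kept as the labels write it. The comparison was read as drug against vehicle in the second knockout, although the treated group is written KO_2 and not R4KO_2. The labels give no dose, no time of treatment, no guide and no clone for any knockout, so each knockout may be 1 clone. They also do not say whether replicates are separate cultures, and p-values then measure only the spread between these libraries, which may be technical.

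As background, the enzyme cGAS binds DNA in the cytosol and makes a cyclic dinucleotide that activates STING on the endoplasmic reticulum. STING moves to the Golgi, where TBK1 phosphorylates it and the transcription factor IRF3, and type I and type III interferon genes are switched on. Secreted interferon acts through JAK kinases, STAT2 and IRF9 on interferon-stimulated genes, which encode antiviral proteins, RNA sensors and the machinery that loads peptides on MHC class I. H-151 binds a cysteine of STING that is palmitoylated during activation.

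Depth differed between the groups: total counts were 17.53 to 17.67 M in the R4KO_2 Vehicle libraries and 21.52 to 26.62 M in the KO_2 H151 libraries. Levels below are in CPM, counts scaled to library size with TMM factors, and log2 fold changes are KO_2 H151 minus R4KO_2 Vehicle unless another pair is named. Of 14348 genes tested with edgeR, 10430 passed an adjusted p of 0.05 (72.7%), of which 5127 rose (35.7%) and 5303 fell (37%). The median log2 fold change of all tested genes was -0.0113. With library size alone as the scale this median was -0.147, and 36% of the calls were rises, against 49.2% with TMM factors. A change of at least 2-fold was called for 768 genes that rose (5.35%) and 1426 that fell (9.94%), 15.3% of genes together. The CPM of the 3 and 3 libraries did not overlap for 76.4% of genes, the share to set beside each statement on overlap below. Because most genes passed the test, a count of called members in a gene list is read below against 35.7% higher and 37% lower, and the list's own shares are printed.

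Some measurements set the treated libraries apart from R4KO_2 by chromosome. Genes of chromosome 20 stood higher in KO_2 H151 than in R4KO_2 Vehicle along its whole length. Of 397 tested genes there, 65.0% were called higher and 16.9% lower, and their median log2 fold change was 0.385. Genes off chromosome 20 had a median of -0.0219, with 34.9% called higher and 37.5% lower. In 10 Mb windows with at least 20 tested genes, all 7 windows of chromosome 20 had positive medians, from 0.183 to 0.448. Of the 252 windows in all, some on other chromosomes had medians of similar or larger size. Examples were 0.408 at 0 to 10 Mb of chromosome 5, -0.592 at 110 to 120 Mb of chromosome 4 and -0.432 at 60 to 70 Mb of chromosome 18. The chromosome 20 median was 0.402 for KO_2 BX_795 minus R4KO_2 Vehicle and 0.281 for R4KO_1 Vehicle minus Ctrl Vehicle. It was -0.00365 for R4KO_2 Vehicle minus Ctrl Vehicle, 0.0687 for KO_2 H151 minus R4KO_1 Vehicle and -0.0378 for H151_iR4 minus iR4. On this chromosome the treated KO_2 libraries thus stood near R4KO_1 and apart from R4KO_2 and control.

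**Figure D1:**
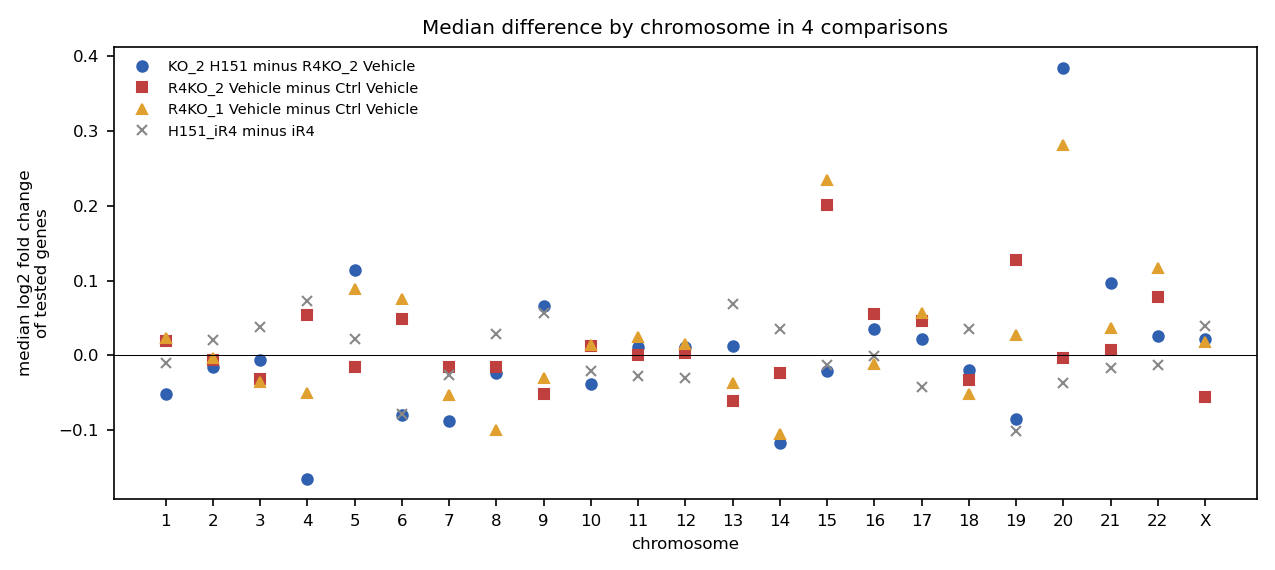
Median log2 fold change of the tested genes of each chromosome (vertical axis) for chromosomes 1 to 22 and X (horizontal axis) in 4 comparisons, each point a median over genes. On chromosome 20 the medians were 0.385 for KO_2 H151 minus R4KO_2 Vehicle and 0.281 for R4KO_1 Vehicle minus Ctrl Vehicle, against -0.00365 for R4KO_2 Vehicle minus Ctrl Vehicle and -0.0378 for H151_iR4 minus iR4.

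Among single genes that separated the knockouts, those higher in R4KO_1 went the same way. Of 51 genes at least 4-fold higher in R4KO_1 than in R4KO_2, the KO_2 H151 mean lay nearer R4KO_1 for 43, the KO_2 BX_795 mean for 41 and the Ctrl Vehicle mean for 12. Of 17 genes at least 4-fold higher in R4KO_2, KO_2 H151 lay nearer R4KO_1 for 13 and Ctrl Vehicle for 14. The set of 17 thus does not set the treated libraries apart from control cells. PXDN, a peroxidase of the extracellular matrix, stood at 0.0530, 0.267 and 0.107 CPM in R4KO_2 Vehicle and at 11.2, 11.6 and 10.1 CPM in KO_2 H151. Its mean was 8.21 CPM in R4KO_1 Vehicle and 0.0397 in Ctrl Vehicle, and its log2 fold change of 0.27 in H151_iR4 minus iR4 did not pass (adjusted p = 0.446). SLC12A3, a sodium-chloride cotransporter, stood at 0.265, 0.321 and 0.214 CPM in R4KO_2 Vehicle and at 24.3, 25.2 and 26.1 CPM in KO_2 H151, with 8.07 CPM in R4KO_1 Vehicle. Neither gene had overlapping groups. The labels do not settle which untreated cells the treated libraries came from, so the effect of H-151 and a difference of cell origin cannot be told apart for any single gene. Each list below except the cell type markers is therefore also given with R4KO_1 Vehicle as the reference, a comparison in which 9793 genes passed (68.3%; 33% higher, 35.3% lower). Of the 10430 main calls, 8333 were called there in the same direction and 173 in the opposite one.

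The targeted gene was read first. REXO4 (ENSG00000148300, chromosome 9, minus strand) stood at 7.05, 7.11 and 5.03 CPM in R4KO_2 Vehicle and at 17.4, 17.0 and 19.8 CPM in KO_2 H151. All treated libraries lay above all untreated ones, a 2.83-fold rise (log2 1.5 ± 0.10 SE, adjusted p = 5.34e-12). Both groups stayed far below Ctrl Vehicle at 75.0 ± 3.01 CPM (SD, n = 3), and R4KO_1 Vehicle was at 9.58 ± 0.354 CPM. ADAMTS13 and STKLD1 overlap REXO4 on the other strand, and no strand setting is stated for the counting.

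Along the chain from DNA sensing to IRF3, the sensor and the adaptor fell while the kinase and the transcription factor did not pass the test. STING1, the drug's target, stood at 52.6, 59.8 and 52.0 CPM in R4KO_2 Vehicle and at 32.2, 30.8 and 31.2 CPM in KO_2 H151. The groups did not overlap, and the log2 fold change was -0.80 ± 0.08 SE (adjusted p = 1.25e-08). CGAS fell from 86.4 ± 4.87 to 56.7 ± 2.79 CPM (SD, n = 3), a 1.52-fold change. TBK1 was at 57.6 to 62.0 CPM without and 56.5 to 59.7 CPM with the drug (log2 -0.03, adjusted p = 0.615), and IRF3 at 78.9 to 86.3 and 77.5 to 79.2 CPM (log2 -0.06, adjusted p = 0.307). With library size alone as the scale both passed, at -0.17 and -0.20. Ctrl Vehicle held 36.6 CPM of STING1 and 62.0 of CGAS. Relative to it STING1 was lower in treated cells (log2 -0.22, adjusted p = 0.0385), and CGAS did not pass (log2 -0.13, adjusted p = 0.112).

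**Figure D2:**
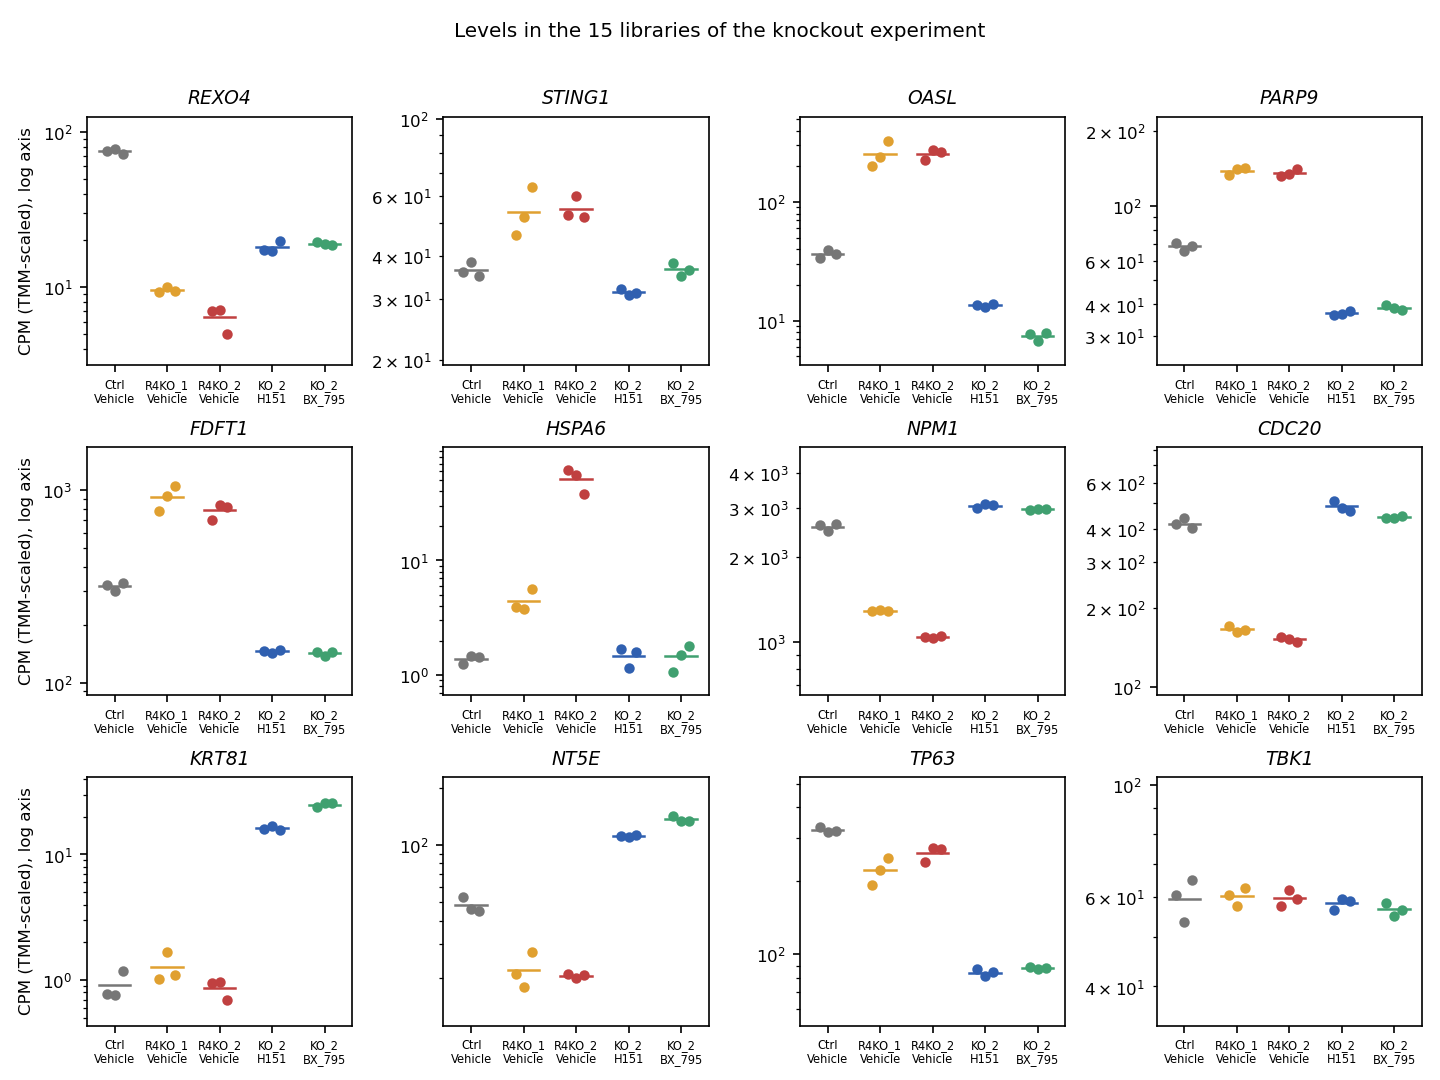
CPM on log axes (vertical) of 12 genes in the 15 libraries of the knockout experiment (horizontal, 5 groups of 3), with points for libraries and bars for group means. OASL, PARP9 and FDFT1 are low in KO_2 H151, NPM1, CDC20, KRT81 and NT5E are high, and TBK1 lies between 53.5 and 64.8 CPM in these 15 libraries.

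Of 33 listed genes of the STING pathway, 30 were tested, and 7 rose (23.3%) and 15 fell (50%). INSIG1, a sterol-regulated protein that retains SCAP in the endoplasmic reticulum and also binds STING, stood at 413, 532 and 551 CPM without the drug and at 78.2, 75.6 and 82.7 with it. All treated libraries lay below all untreated ones, a 6.32-fold fall. INSIG1 is also a member of the cholesterol list below and is counted in both. IFI16, a nuclear DNA sensor, fell from 300.4 to 341 CPM down to 138 to 142 CPM. NLRX1, which restrains STING signalling, fell 2.48-fold and the ubiquitin ligase TRIM56 1.67-fold. Among the 7 that rose, SLC19A1, the reduced folate carrier that also imports cyclic dinucleotides, went from 10.4, 12.5 and 12.8 CPM to 67.9, 59.3 and 62.0 CPM. DDX41, a helicase linked to DNA sensing, rose 1.46-fold. Against R4KO_1 Vehicle the list had 6 higher and 14 lower.

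Interferon genes themselves were read only by a few counts. IFNL1, a type III interferon, had 29 counts over the 3 R4KO_2 Vehicle libraries and 1 count in KO_2 H151, a 39.6-fold ratio with a 95% counting interval of 6.56 to 1620. IFNB1 had 7 and 0 counts, which makes it at least 3.18-fold lower, taking 3 counts summed over the group as the floor, with a lower limit of 1.97-fold from the counting interval. R4KO_1 Vehicle held 28 and 4 counts of the 2 genes, and Ctrl Vehicle 0 of each. IFNE and IFNA1 were the 2 of 10 listed interferon genes to be tested, and only IFNE was called, at -0.54 on the log2 scale. The number called lower was 2 with DESeq2 and when any 1 of the 6 libraries except R4KO_2 Vehicle replicate 3 was left out, 3 with no filter on low counts, and 1 against R4KO_1 Vehicle. Relative to Ctrl Vehicle both tested genes were lower in R4KO_2 Vehicle (median log2 fold change -2.96) and in KO_2 H151 (median -3). In H151_iR4 minus iR4, 1 of 2 tested was called higher and none lower. The counting intervals cover counting error only.

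RNA sensors fell almost as a group. Of 25 genes, 19 fell (76.0%) and 4 rose (16%), with a median of -0.998, and 12 fell at least 2-fold. OASL, an OAS-like protein that binds ubiquitin-family chains and modulates RIG-I and cGAS, stood at 227, 276 and 262 CPM without the drug and at 13.5, 13.03 and 13.9 CPM with it, an 18.9-fold fall. OAS2, which makes the second messenger that activates RNase L, went from 17.9, 24.5 and 22.6 CPM to 0.690, 1.05 and 0.427 CPM. The RIG-I-associated helicase DDX60 fell from 116 to 142 CPM down to 11.0 to 11.8 CPM, and OAS3 fell 2.71-fold. No treated library reached any untreated one for these 4 genes. TRAF3 (log2 0.47) and PRKRA, an activator of the kinase PKR, were among the 4 that rose. Against R4KO_1 Vehicle 18 fell and 4 rose. Against Ctrl Vehicle, where 26.9% of all genes were lower, 17 were lower and 1 higher.

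Receptor and STAT signalling genes fell by less. Of 22 tested, 19 fell (86.4%) and none rose (3 did not pass), with a median of -0.62. IRF1, a transcription factor of MHC class I and interferon genes, fell from 91.1, 99.2 and 97.9 CPM to 37.6, 38.3 and 34.4 CPM. STAT2 fell 2.17-fold, JAK1 1.71-fold and TYK2 1.63-fold, and in each case the groups did not overlap. Against R4KO_1 Vehicle 19 fell as well. Against Ctrl Vehicle 9 were lower and 3 higher, and STAT2 did not pass there (log2 -0.11).

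Antiviral effectors fell in nearly every tested member. Of 52 genes listed, 48 passed the count filter, and 43 fell (89.6%), 33 of them at least 2-fold, with a median of -1.63. The filter was set over 15 libraries, so a weak gene could enter through the group where it was high. PARP9, an ADP-ribosyltransferase partner that acts in antiviral defence, stood at 131, 134 and 140 CPM without the drug and at 36.4, 36.7 and 37.5 CPM with it (3.66-fold, adjusted p = 5.99e-19). It overlaps DTX3L on the other strand. IFI44L fell from 29.2, 33.3 and 32.0 CPM to 4.40, 4.26 and 3.99 CPM. SAMD9, a restriction factor of poxviruses, fell 6.09-fold and PARP14 3.91-fold. EPSTI1 alone rose, from 0.748 to 1.12 CPM up to 1.21 to 1.68 CPM (adjusted p = 0.0147), and it lost its call when KO_2 H151 replicate 3 (adjusted p = 0.0518) or R4KO_2 Vehicle replicate 2 (0.0669) was left out. Its sign turned against R4KO_1 Vehicle (log2 -0.25), where it did not pass (adjusted p = 0.319). In that comparison 46 of the 48 fell and none rose. Relative to Ctrl Vehicle 33 were lower and 2 higher, so for most members the treated level lay under the control level and not only under the knockout level.

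Many promoters of these effectors hold the interferon response motif. The list was written from general knowledge of interferon-stimulated genes, so a high share in it describes the list and not the drug. The interferon response motif was searched as GAAA, any 2 bases and GAAA, on both strands, from 250 bases before to 50 bases after the RefSeq start (GRCh38.p14). It was found in 30 of the 40 tested effectors with a promoter in the table (75.0%), in 2.81% of the promoters of all tested genes and in 3.65% of all 27305 promoters given. Of the genes that fell at least 2-fold 6.98% held it, and of those that rose at least 2-fold 2.38%. The genes that fell include effectors of this same list. IFIT1 and IFIT3, which encode proteins that bind foreign RNA, are printed here, chosen after their values were seen, as examples with a pair of matches each. Capitals mark the matches, which read on the opposite strand, and the stretches run 5′ to 3′ on the plus strand at chr10:89392487-89392549 and chr10:89327821-89327904.
IFIT1: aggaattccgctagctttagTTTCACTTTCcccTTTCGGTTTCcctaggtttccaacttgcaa
IFIT3: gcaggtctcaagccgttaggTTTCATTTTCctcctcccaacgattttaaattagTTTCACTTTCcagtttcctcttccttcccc
In the libraries, IFIT1 stood at 228, 240.1 and 241 CPM without the drug and at 26.1, 24.9 and 21.9 CPM with it. IFIT3 stood at 175, 215 and 226 CPM and at 16.5, 15.8 and 17.1 CPM. Both pairs of groups were far apart, with log2 fold changes of -3.28 and -3.64. The motif was in 6 of 19 RNA sensor promoters (31.6%), 9 of 17 MHC class I promoters (52.9%) and 1 of 46 ribosome biogenesis promoters (2.17%). A match describes these letters only and is not a measured binding site.

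Genes of ISG15 conjugation, the ubiquitin-like tag that interferon induces, fell in each of the 6 tested of 7 listed, with a median of -2.01. HERC5, the ligase that attaches ISG15, went from 46.6, 58.6 and 58.3 CPM to 2.33, 2.92 and 2.52 CPM, a 21.1-fold fall. The activating enzyme UBA7 fell 4.36-fold and the conjugating enzyme UBE2L6 2.54-fold. All 6 also fell against R4KO_1 Vehicle and stood below Ctrl Vehicle. In the APOBEC3 family of cytidine deaminases 4 of 7 genes were tested and all 4 fell, also against R4KO_1 Vehicle. APOBEC3B, the nuclear member that mutates tumour genomes, stood at 47.7, 47.2 and 51.2 CPM and then at 7.203, 7.33 and 6.63 CPM. APOBEC3G, not tested, had 27 counts without and 1 count with the drug. The family members are close copies, and reads shared between them may have been split.

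MHC class I presentation fell in 17 of 21 tested genes (81.0%) and rose in 2, with a median of -1.02. B2M, the light chain of every class I molecule, fell 2.51-fold, HLA-F 5.08-fold and the immunoproteasome subunit PSMB9 3.93-fold, all with no overlap between groups. The HLA genes are near-identical in parts, so their separate values are uncertain. CANX, a chaperone of many glycoproteins, rose 1.54-fold. PDIA3 rose by 0.16, and against R4KO_1 Vehicle it stood at -0.03 and did not pass (adjusted p = 0.362). In that comparison 17 fell and 1 rose, and against Ctrl Vehicle 18 were lower and 2 higher.

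Of 19 listed chemokines only 9 were tested. Of these 3 rose (33.3%) and 4 fell (44.4%), shares near those of all genes, and against R4KO_1 Vehicle 4 were higher and 4 lower. With no filter on low counts 7 fell. CCL22, a ligand of CCR4, fell from 3.77, 4.38 and 4.39 CPM to 0.173, 0.287 and 0.155 CPM. CCL5, which attracts T cells, went from 1.43, 2.94 and 2.89 CPM to 0.388, 0.0958 and 0.349 CPM. CXCL10, a ligand of CXCR3, had too few counts to be tested: 31 without and 3 with the drug, a 14.1-fold ratio with a 95% counting interval of 4.40 to 72.1. In the other direction, CXCL3, a ligand of CXCR2 on neutrophils, stood at 1.01, 0.642 and 0.589 CPM and then at 8.84, 8.10 and 9.15 CPM. CCL20, the ligand of CCR6, went from 1.80, 2.09 and 2.30 CPM to 11.6, 11.5 and 10.2 CPM. Every treated library lay above every untreated one for CXCL3 and CCL20. Both were also higher than in R4KO_1 Vehicle, by 3.77 and 3.20 on the log2 scale, and than in Ctrl Vehicle, at 0.295 and 0.0592 CPM.

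Cytokines of the IL-1 and IL-6 families and related ligands fell in 13 of 17 tested genes (76.5%), and none rose. IL1RN, the IL-1 receptor antagonist, went from 5.78, 8.34 and 8.14 CPM to 0.690, 0.623 and 0.504 CPM. IL15 fell 2.73-fold, IL32 3.98-fold and the EGF receptor ligand AREG 2.51-fold. Against R4KO_1 Vehicle 11 fell and 2 rose. Among NF-kB subunits and targets 10 of 22 fell (45.5%) and 5 rose (22.7%), with a median of -0.24. Against R4KO_1 Vehicle 12 fell and 5 rose. Relative to Ctrl Vehicle, where 26% of all genes were higher, 14 stood higher and 2 lower. BCL3, a nuclear IkB-like protein, fell 2.31-fold and CYLD, a deubiquitinase that limits NF-kB, 1.83-fold. ZC3H12A, an RNase that degrades cytokine mRNA, rose from 31.6 to 35.4 CPM up to 68.4 to 71.9 CPM, and NFKBIB, an inhibitor of NF-kB, rose 1.91-fold. Among ligands of immune checkpoints 8 of 12 fell (66.7%) and 3 rose, the same counts as against R4KO_1 Vehicle. CEACAM1, a ligand of TIM-3, went from 7.95, 8.87 and 8.19 CPM to 0.690, 0.431 and 0.427 CPM, and LGALS9 fell 7.11-fold. NT5E, the ectoenzyme CD73 that makes adenosine, rose from 20.9, 19.8 and 20.7 CPM to 111, 110.2 and 113 CPM.

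**Figure D3:**
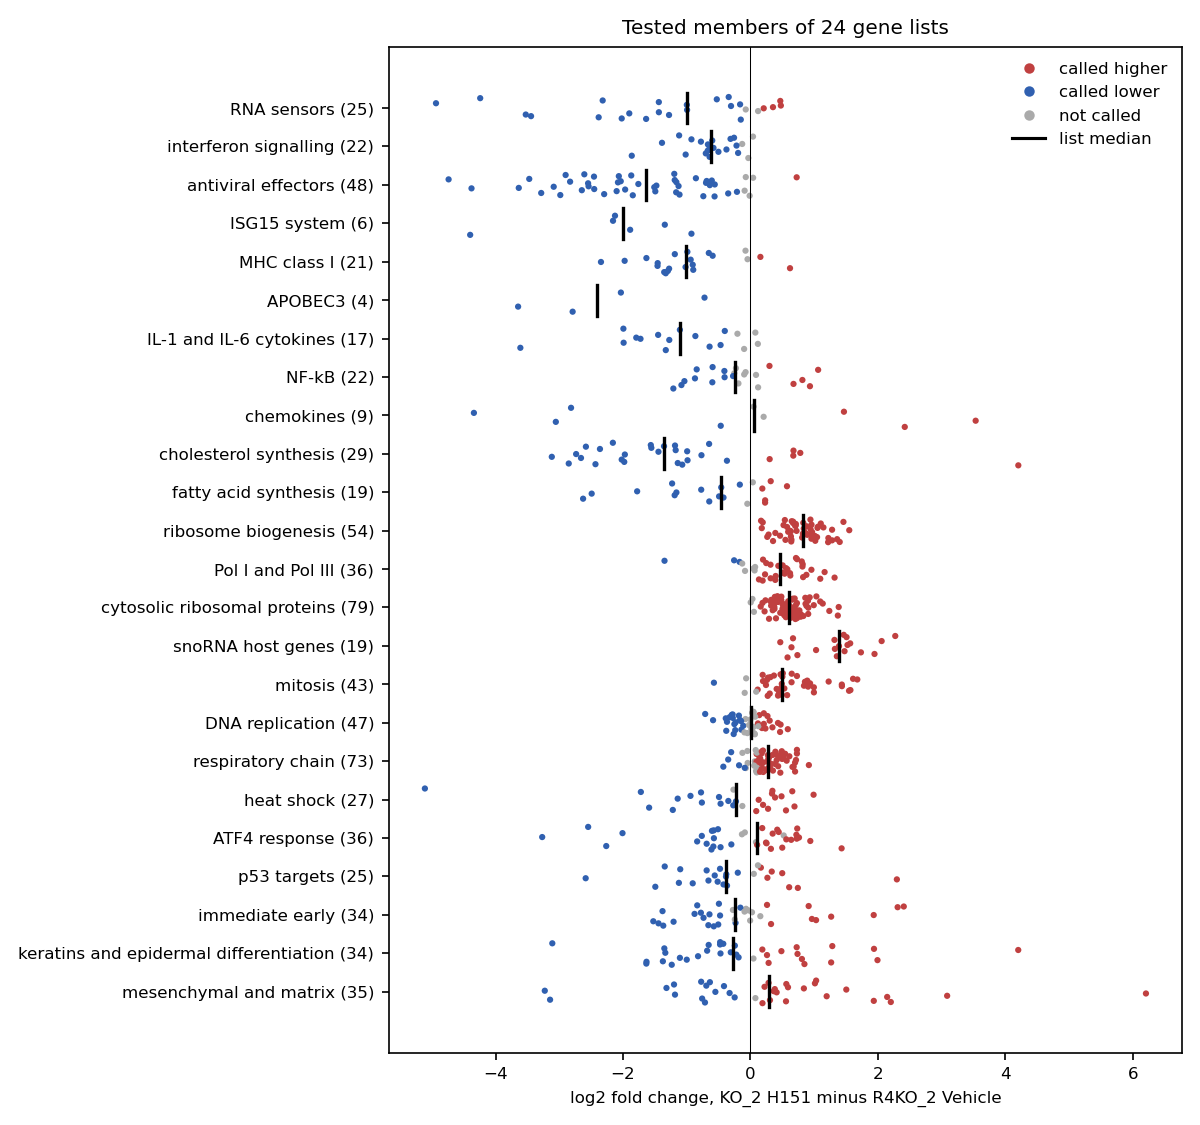
Log2 fold change of KO_2 H151 minus R4KO_2 Vehicle (horizontal axis) for the tested members of 24 gene lists (rows, with the number tested), each point a gene, coloured by its call at an adjusted p of 0.05, with a bar at the list median. Antiviral effectors have a median of -1.63 and cholesterol synthesis -1.36, against 0.83 for ribosome biogenesis and 1.39 for snoRNA host genes.

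Genes of lipid synthesis fell together with the interferon-stimulated genes. Of 29 genes of cholesterol synthesis and uptake, all of them tested, 24 fell (82.8%) and 5 rose, with a median of -1.36 and 19 falls of at least 2-fold. FDFT1, squalene synthase, stood at 699, 833 and 817 CPM without the drug and at 147, 142 and 147 CPM with it. STARD4, a sterol carrier, fell 3.92-fold. No treated library overlapped an untreated one for either gene. ACAT2 rose the most of the 5, from 0.0530, 0.214 and 0.214 CPM to 2.59, 3.64 and 2.99 CPM. It overlaps TCP1 on the other strand, and its direction turned against R4KO_1 Vehicle, which held 6.32 CPM (log2 -1.05). LBR, a sterol reductase of the nuclear envelope, rose 1.72-fold. Against R4KO_1 Vehicle 25 of the list fell, and against Ctrl Vehicle 23 were lower. SREBF2, which encodes the main activator of these genes, fell by 1.18 on the log2 scale. Its promoter was the only one of 22 in the list to hold TCACNCCAC, a form of the sterol response motif, on either strand, against 1.17% of the promoters of all tested genes. It is printed with the match in capitals, at chr22:41832952-41833000 on the plus strand.
SREBF2: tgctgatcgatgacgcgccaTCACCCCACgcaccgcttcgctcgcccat
Of 19 tested genes of fatty acid synthesis 12 fell (63.2%) and 5 rose (26.3%), and against R4KO_1 Vehicle 13 fell and 4 rose. ACSL1, which activates long-chain fatty acids, fell 6.17-fold and the desaturase FADS1 2.24-fold. SREBF1, the related activator of fatty acid genes, rose 1.25-fold.

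Genes of ribosome production rose together. All 54 genes of nucleolar ribosome biogenesis rose, 15 of them at least 2-fold, with a median of 0.83. NPM1, a nucleolar chaperone, stood at 1041.3, 1031.5 and 1051.7 CPM without the drug and at 3001.2, 3082.9 and 3067.9 CPM with it. EBNA1BP2, which acts in processing of large-subunit RNA, rose 2.75-fold, and NOP56 and DKC1, core proteins of the snoRNPs that modify ribosomal RNA, rose 1.97-fold and 2.02-fold. NOP56 lies on chromosome 20, as the only member of the list to do so. Of 79 cytosolic ribosomal protein genes 76 rose and none fell, with a median of 0.61; RPL4 rose 1.84-fold and RPL23 2.14-fold. These genes have many processed pseudogenes, which may take part of their reads. All 19 tested snoRNA host genes rose, with a median of 1.39, and 14 did so at least 2-fold. GAS5 went from 92.2, 94.9 and 102 CPM to 309, 323 and 331 CPM, and SNHG3 rose 4.83-fold. For RNA polymerases I and III, 28 of 36 genes rose (77.8%) and 3 fell. TAF1D rose 2.50-fold and POLR1A, the largest subunit of polymerase I, 1.77-fold. Against R4KO_1 Vehicle the rises numbered 54, 74, 19 and 28 in the same order of lists. Against Ctrl Vehicle, where 26% of all genes were higher, ribosome biogenesis had 18 higher and 14 lower, with a median of 0.0338, so treated cells stood near the control level. The MYC network list had 3 of 12 higher (25%) and 4 lower (33.3%), under the shares of all genes, and 5 higher and 4 lower against R4KO_1 Vehicle. With library size alone 7 were lower. MYC, a transcription factor that drives ribosome genes, rose 1.81-fold. Among its antagonists MXD3 rose by 0.75 on the log2 scale, while MXD1 fell from 75.6, 79.8 and 74.2 CPM to 14.8, 14.7 and 14.5 CPM.

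Genes of mitosis rose, while those of DNA replication were divided. Of 43 mitotic genes 39 rose (90.7%), with a median of 0.49. CDC20, the activator of the anaphase-promoting complex, stood at 155, 153 and 148 CPM and then at 511, 481 and 467 CPM. CCNB1, cyclin B1, rose 2.70-fold, the ubiquitin-conjugating enzyme UBE2C 2.34-fold and the kinase AURKA 2.92-fold. UBE2C and AURKA are among the 4 list members on chromosome 20. SPC24 alone fell, by 0.57 on the log2 scale. Against R4KO_1 Vehicle 40 rose and 1 fell, and against Ctrl Vehicle 13 were higher and 15 lower. For DNA replication 13 of 47 rose (27.7%) and 18 fell (38.3%), near or under the shares of all genes, with a median of 0.0131 and no change of 2-fold. Only 5 falls were left with a minimum fold of 1.2, and against R4KO_1 Vehicle the balance turned to 19 higher and 14 lower. MCM5, a helicase subunit, rose 1.39-fold, and CCNE2, cyclin E2, fell 1.5-fold.

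The largest fall among well-measured genes was that of HSPA6, an inducible cytosolic chaperone that most human cells express only under proteotoxic stress. It stood at 61.0, 55.4 and 38.1 CPM in R4KO_2 Vehicle and at 1.68, 1.15 and 1.59 CPM in KO_2 H151 (log2 -5.11 ± 0.19 SE, adjusted p = 4.43e-16). The treated level was near that of Ctrl Vehicle at 1.38 ± 0.114 CPM. R4KO_1 Vehicle held 4.43 ± 1.06 CPM, so the fall against that knockout was much smaller (log2 -1.57). HSPA6 has a near-identical pseudogene, which may share its reads. Its promoter held GAA, any 2 bases, TTC, any 2 bases and GAA, a form of the heat shock element, on the opposite strand. This motif was in 5 of 25 heat shock promoters (20.0%) and in 0.304% of those of all tested genes. The stretch is at chr1:161524446-161524498 on the plus strand, with the match in capitals.
HSPA6: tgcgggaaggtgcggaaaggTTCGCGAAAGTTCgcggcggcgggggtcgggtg
The heat shock list, which holds HSPA6, was divided, with 13 falls (48.1%) and 12 rises (44.4%) among 27. HSPB1 fell 1.71-fold and DNAJB4 1.92-fold, whereas HSP90AB1 rose from 2130.5 to 2284 CPM up to 4315.4 to 4507.5 CPM and the mitochondrial chaperone HSPA9 1.61-fold. Against R4KO_1 Vehicle there were 8 falls and 15 rises.

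Other stress lists held called members in both directions. Of 36 genes of the ATF4 response, 15 fell (41.7%) and 17 rose (47.2%). Against R4KO_1 Vehicle 8 fell and 17 rose, and with a minimum fold of 1.2 only 11 rises were left. Relative to Ctrl Vehicle, where 26% of all genes were higher, 27 stood higher in KO_2 H151 and 1 lower. GDF15, a secreted stress hormone, went from 120.2, 149 and 126 CPM to 13.5, 13.7 and 13.9 CPM and NUPR1 fell 5.84-fold, while ATF5 rose 2.70-fold and MTHFD2, a mitochondrial folate enzyme, 1.92-fold. Of 25 p53 targets 16 fell (64.0%) and 7 rose, against 13 and 4 with R4KO_1 Vehicle as the reference. CDKN1A, the cell-cycle inhibitor p21, fell from 201 to 244 CPM down to 77.2 to 79.0 CPM, and TP53INP1 fell 6.0-fold. Of 34 NRF2 targets 15 fell (44.1%) and 12 rose (35.3%), close to the shares of all genes, and 18 fell and 8 rose against R4KO_1 Vehicle. AKR1B10 fell 3.73-fold and SRXN1 (chromosome 20) rose 4.0-fold. In the unfolded protein response 12 of 25 rose (48.0%) and 5 fell (20.0%), also against R4KO_1 Vehicle, and with a minimum fold of 1.2 only 6 rose. Immediate early genes fell in 17 (50%) and rose in 9 (26.5%) of 34, against 8 and 9 when compared with R4KO_1 Vehicle. DUSP2, a phosphatase of MAP kinases, rose from 20.1, 23.8 and 26.1 CPM to 119.9, 113 and 114 CPM, and KLF4 fell 2.58-fold.

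Epithelial genes shifted within the squamous programme. Of 34 tested keratin and epidermal genes 20 fell (58.8%) and 13 rose (38.2%), and 16 fell and 13 rose against R4KO_1 Vehicle. KRT15, a keratin of basal cells, fell from 79.0, 69.3 and 79.0 CPM to 8.67, 8.91 and 8.76 CPM. TP63, the master regulator of the basal squamous state, fell 3.10-fold, the desmosomal cadherin DSG3 3.10-fold and KRT17 2.59-fold. In the other direction KRT81, a hair keratin, went from 0.955, 0.962 and 0.696 CPM to 15.8, 17.0 and 15.7 CPM, and KRT7, a keratin of simple epithelia, rose 2.44-fold. KRT81 overlaps KRT86 on the other strand. Of 12 keratinocyte markers, all tested, 11 fell and KRT6A rose. All marker sums given here are in CPM scaled to library size alone, without TMM factors. On that scale the median log2 fold change of all tested genes was -0.147, so treated sums read somewhat low. The keratinocyte markers summed to 5720 to 5930 CPM in R4KO_2 Vehicle, 5380 to 5820 in Ctrl Vehicle and 3190 to 3260 in KO_2 H151. Keratinocyte marker transcripts were thus plainly present in each of these groups, and their sum was lower in treated cells. In bulk RNA, fewer cells of a kind and less RNA per cell cannot be told apart. Leukocyte markers summed to 26.6 to 29.7 CPM without and 11.0 to 12.6 CPM with the drug, with 2 of 15 tested and 4 at 0 in all 6 libraries. Fibroblast markers summed to 42.6 to 46.0 and 37.6 to 38.5 CPM, with 3 of 10 tested. Endothelial markers summed to 41.5 to 46.0 and 42.1 to 45.5 CPM, with 4 of 10 tested. Their part in the results was not tested.

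Of 35 matrix genes 20 rose (57.1%) and 14 fell (40%), and 18 rose and 12 fell against R4KO_1 Vehicle. The collagenase MMP13 fell from 103, 113 and 117 CPM to 11.4, 13.6 and 12.7 CPM and MMP10 fell 9.36-fold, both also far below Ctrl Vehicle (133 and 25.01 CPM). ESM1, a secreted proteoglycan, rose from 2.17, 2.03 and 1.77 CPM to 9.01, 9.15 and 8.38 CPM, while R4KO_1 Vehicle held 0.0735 CPM. Among YAP-TEAD targets 9 of 18 rose (50%) and 3 fell (13 and 2 against R4KO_1 Vehicle), and the receptor kinase AXL and the matricellular protein CCN1 rose 2.0-fold and 1.89-fold.

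Transcripts of energy metabolism genes were modestly higher than in R4KO_2 Vehicle. Of 73 nuclear-encoded genes of the respiratory chain 54 rose (74.0%) and 5 fell, with a median of 0.27 and no change of 2-fold. Only 27 rises were left with a minimum fold of 1.2, and 34 against R4KO_1 Vehicle. In glycolysis and the hypoxia response 23 of 33 rose (69.7%) and 6 fell, and 25 rose and 4 fell against R4KO_1 Vehicle. Relative to Ctrl Vehicle the respiratory list had 24 higher and 18 lower (median 0.0406). The glycolysis and hypoxia list had 14 higher and 9 lower there (median 0.0687). LDHA, lactate dehydrogenase A, stood at 1499.4, 1456.6 and 1515.5 CPM and then at 3654.5, 3676.6 and 3605.7 CPM, and PGK1 rose 1.89-fold, whereas PFKFB4 fell 2.87-fold. Among genes that process R-loops or write and read m6A, the subject of the series title, 20 of 38 rose (52.6%) and 11 fell (28.9%), with a median of 0.123. Against R4KO_1 Vehicle 22 rose and 9 fell, and with a minimum fold of 1.2 only 12 rises were left. RNASEH1, which degrades the RNA of DNA-RNA hybrids, rose from 21.0 to 23.5 CPM up to 45.3 to 49.1 CPM. RNASEH2A fell 1.54-fold and BRCA1 1.59-fold, and the m6A reader YTHDF1, on chromosome 20, rose 1.69-fold.

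The remaining large changes were in less studied or uncertain genes. Of the 6 largest rises with a mean log2 CPM of at least 2, EID3 went from 1.17, 1.497 and 1.499 CPM to 12.3, 12.7 and 13.7 CPM, but it lies inside TXNRD1 on the same strand. MFAP5, a microfibril protein, went from 1.91, 1.44 and 1.82 CPM to 14.02, 15.7 and 14.4 CPM. RPL9P7 is a processed pseudogene inside APOO, and SNHG4 and MATR3 (ENSG00000280987) overlap each other, so the sources of their reads are uncertain. LINC00641, a long noncoding RNA, rose 6.77-fold to 41.9 ± 3.42 CPM, next to 41.1 CPM in Ctrl Vehicle. The 6 largest falls were HSPA6, OAS2, HERC5 and OASL together with 2 noncoding RNAs. LINC03040 went from 150.4, 200.2 and 193 CPM to 6.90, 6.80 and 5.43 CPM, and LINC01843 from 51.2, 59.5 and 54.2 CPM to 2.11, 1.82 and 1.86 CPM. Groups did not overlap for any of these 12 genes, as the rule for naming them required. Against R4KO_1 Vehicle all 12 kept their direction and passed.

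The TBK1 inhibitor gave a close profile in cells with the same label. KO_2 BX_795 minus KO_2 H151 had 1387 calls (9.67%; 5.67% higher, 3.99% lower) and 67 by at least 2-fold (0.467%). Of these, 65 were higher (0.453%) and 2 lower (0.0139%) with BX-795. Antiviral effectors had 10 genes higher and 2 lower with BX-795, and ribosome biogenesis 2 higher. IL32 differed, at 23.1 ± 1.17 CPM with BX-795 and 4.62 ± 0.201 with H-151 (log2 2.32, adjusted p = 1.45e-08). NF-kB genes stood higher with BX-795 in 14 of 22, CD83 among them (54.4 against 29.4 CPM), and NRF2 targets lower in 19 of 34. The compounds were compared at unstated doses, and both groups carry the higher chromosome 20 level.

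Relative to control cells, 7599 genes differed in KO_2 H151 (53%), 860 of them by at least 2-fold (5.99%). Of these, 471 were higher (3.28%) and 389 lower (2.71%). R4KO_2 Vehicle minus Ctrl Vehicle had 9495 calls (66.2%; 34% higher, 32.2% lower). These comparisons share libraries with the main one, so their values are only set side by side. Antiviral effectors had a median of 0.99 in R4KO_2 Vehicle minus Ctrl Vehicle, -1.63 in the main comparison and -0.43 in KO_2 H151 minus Ctrl Vehicle. Cholesterol genes had 0.76, -1.36 and -0.66, mitotic genes -0.56, 0.49 and 0.0460, and snoRNA hosts -1.12, 1.39 and 0.15 in the same order.

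The second setting, H151_iR4 minus iR4 (9908 calls of 14585, 67.9%), shares no library with the main comparison and had a chromosome 20 median near that of other genes. Of the 1426 genes that fell at least 2-fold in KO_2 cells, 1053 were called lower there (34.5% of all genes were) and 36 higher. Of the 768 that rose at least 2-fold, 463 were called higher (33.5% of all genes) and 61 lower. Across the 14348 genes in both fits Pearson's r of the log2 fold changes was 0.618, a description across genes, which are not independent. The difference between the settings passed for 7397 of 14585 genes (50.7%), higher in KO_2 cells for 27% and lower for 23.7%.

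**Figure D4:**
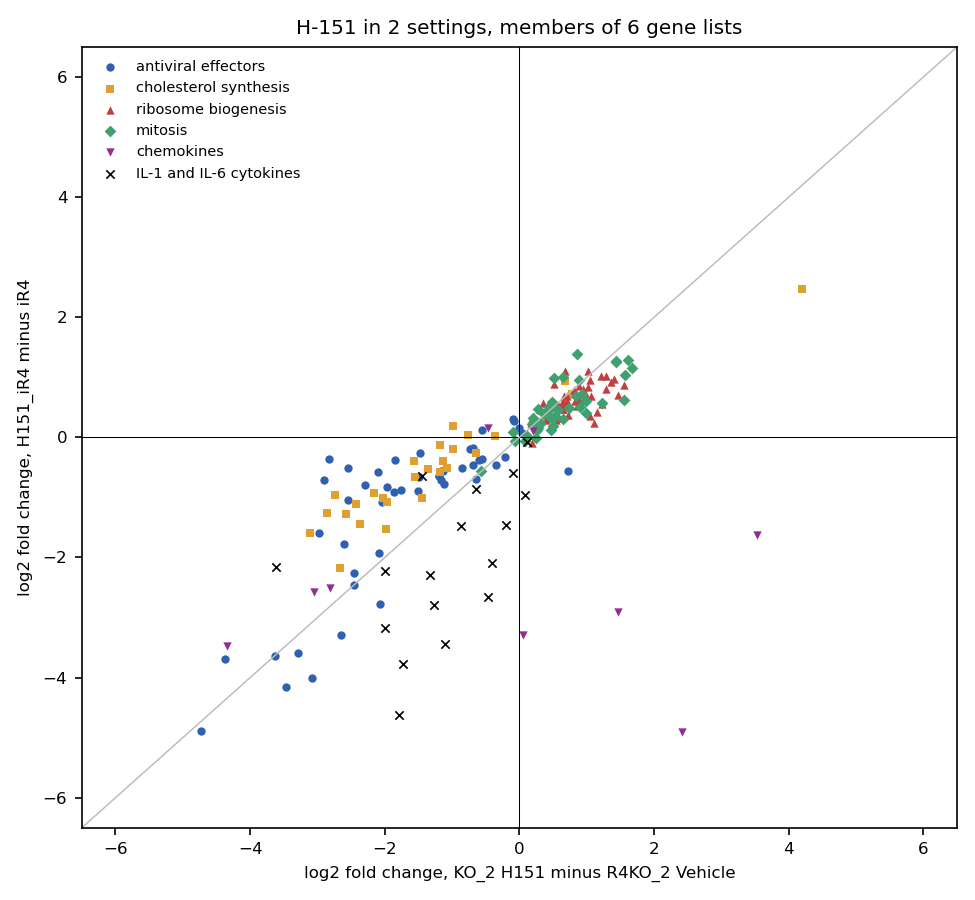
Log2 fold change with H-151 in KO_2 cells (horizontal axis, KO_2 H151 minus R4KO_2 Vehicle) and in iR4 cells (vertical axis, H151_iR4 minus iR4) for the tested members of 6 gene lists, each point a gene and the grey line equality. Most members of ribosome biogenesis and mitosis lie in the upper right, most antiviral effectors in the lower left, and CXCL3 (3.53 and -1.62) and CCL20 (2.42 and -4.91) in the lower right.

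By list, antiviral effectors fell in 41 of 48 in iR4 cells (median -0.68), ribosome biogenesis rose in 53 of 54 (0.61) and mitosis rose in 36 of 43 (0.46). The sizes differed, however. For antiviral effectors the difference between settings was called lower in KO_2 cells for 30 of 48 and higher for 2. For ribosome biogenesis it was called higher for 29 of 54 and lower for 2, and for mitosis higher for 20 of 43 and lower for 5. The fall of cholesterol genes was also smaller in iR4 cells, at a median of -0.53, and the difference was called lower in KO_2 cells for 25 of 29. Fatty acid genes had a median of 0.131 in iR4 cells, and 16 of 19 differed toward lower values in KO_2 cells. MHC class I genes differed in that direction for 20 of 21. The opposite held for cytokines, of which 17 of 19 tested fell in iR4 cells, and 11 of the 17 tested in both settings differed toward higher values in KO_2 cells. The same was so for 15 of 22 NF-kB genes, 25 of 34 immediate early genes and 32 of 36 ATF4 genes. Among single genes, HSPA6 fell by 5.78 on the log2 scale in iR4 cells, from 89.8 ± 32.1 to 1.65 ± 0.222 CPM, and its difference between settings did not pass (adjusted p = 0.296). STING1 was also close in both, at -0.80 and -0.67.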

How the data were processed

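RNA of SCC1 cells was measured by sequencing. Per the labels' protocols, total RNA was treated with DNase I, enriched for polyadenylated RNA and sequenced on an Illumina HiSeq instrument; the molecule field of the labels reads genomic DNA. For each library the authors deposited whole-number read counts by Ensembl gene. The submitters' processing notes name HISAT2 2.2.1 and featureCounts 2.0.1, beside FastQC 0.11.9, Trim Galore 0.6.4 and DESeq2 1.42.0; they also list the builds hg38 and mm10. Annotation and strand setting: not given in the sources used here.

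Each of 35135 IDs was used once. All 14 mitochondrially encoded genes are listed at 0. The 15 libraries of the knockout experiment were fitted together by quasi-likelihood F tests of edgeR 4.0.16 (R 4.3.3). Scaling was by TMM, genes were kept by filterByExpr at 10 counts, and p-values were adjusted by Benjamini-Hochberg over all genes tested, with a threshold of 0.05. All 24 SCC1 libraries were fitted together for H151_iR4 minus iR4 and for the difference between settings. The fit was tested on simulated data with known changes. Gene positions are GENCODE v29 on GRCh38 and promoters are from RefSeq GRCh38.p14.

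Some named genes are not reported here. The members and the 37 gene lists were chosen with earlier results of these data known, and the lists give counts and medians only. Some genes, such as INSIG1, LGALS9 and CANX, belong to more than 1 list and are counted in each. Named genes are REXO4, STING1, CGAS, TBK1 and IRF3; the 6 largest rises and falls among genes whose groups did not overlap and whose mean log2 CPM was 2 or more; up to 4 lowest-p members of each list in its main direction and up to 2 in the other; and HSPA6, OAS2, NPM1, SLC12A3, PXDN and CXCL3. IFIT1, IFIT3 and SREBF2, the genes with low counts, and the choice of KRT81, CCL20 and ESM1 for the closing section came after their values were seen. Replicates of a group differed beyond counting noise (chi-square per degree of freedom 1.66 to 3.13), so none was merged. Alternatives were other scalings, DESeq2, other filters, robust dispersion, a fold minimum of 1.2, other sets of libraries, R4KO_1 Vehicle as reference, the replicate number as a block and each replicate left out.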

Additional observations from a re-analysis of the deposited data

Results flagged for a closer look

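The change between KO_2 H151 and R4KO_2 Vehicle differed from that between H151_iR4 and iR4 for several named genes, by the interaction term of the 24-library edgeR fit. The drug and the origin of the KO_2 cells cannot be told apart in these differences, and PXDN and SLC12A3 stood at 8.21 and 8.07 CPM in R4KO_1 Vehicle without the drug. The differences below are the log2 fold change in KO_2 cells minus that in iR4 cells, and all passed the adjusted threshold of 0.05. CCL20 had the largest, 7.34, since it rose by 2.42 in KO_2 cells and fell by 4.91 in iR4 cells. PXDN (5.95), ESM1 (5.62), CXCL3 (5.16), KRT81 (4.99), SLC12A3 (4.82) and MFAP5 (4.29) came next. ESM1, CXCL3, KRT81 and MFAP5 also went in opposite directions, falling in iR4 cells by 3.46, 1.62, 0.78 and 1.19. EID3 (2.75), RPL9P7 (2.69), MATR3 (1.69), SNHG4 (1.22) and REXO4 (0.94) rose more in KO_2 cells. OASL (1.78) fell less there than in iR4 cells, whereas OAS2 (-1.53, adjusted p = 0.0469), LINC01843 (-1.34) and LINC03040 (-1.0) fell more. LINC00641, HSPA6 and HERC5 did not pass this test.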

How the results depend on the processing

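Of 10430 calls, 6789 were left with a minimum fold of 1.2, of which 3179 were rises; DESeq2 gave 9907 and R4KO_1 Vehicle as the reference 9793. Leaving out 1 replicate gave 9913 to 10045 calls. Correlations between libraries of the same replicate number were very small, at 0.00574, 0.0109 and 0.00725. Each library correlated best with its own number, but values this small do not settle whether the numbers pair libraries. With the replicate number as a block 10392 genes were called. Library size alone gave 10477 calls, 36% of them rises. Against R4KO_1 Vehicle the sign turned for 4 named genes, and of these only ACAT2 passed (-1.05, adjusted p = 3.64e-07). EPSTI1 (-0.25, adjusted p = 0.319), PDIA3 (-0.0322, 0.362) and GTF3C5 (0.0237, from -0.26, 0.673) did not pass there. The cause was not tested. Of the other alternatives for named genes, 3505 kept the call, 15 lost it and 2 gained it. Genes under the count filter, interferons among them, had too few counts to be tested at this depth.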

Other observations

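Genes that did not pass the count filter add a few values. PDCD1LG2, the checkpoint ligand PD-L2, had 39 counts over the R4KO_2 Vehicle libraries and 13 in KO_2 H151, a 4.09-fold ratio with a 95% counting interval of 2.14 to 8.36. CCL28, a mucosal chemokine, had 27 and 4 counts, and SPRR2D, a cornified envelope protein, 23 and 5. In the other direction, BCL2A1, an antiapoptotic target of NF-kB, had 1 and 20 counts, CD14, a co-receptor for endotoxin, 1 and 30, and the snoRNA host SNHG25 3 and 31. R4KO_1 Vehicle held 2 counts of BCL2A1, 6 of CD14 and 6 of SNHG25. It also held 27 of PDCD1LG2 and 30 of CCL28, but 0 of SPRR2D, and Ctrl Vehicle likewise held 0 of SPRR2D. The fall of SPRR2D was thus not seen against R4KO_1 Vehicle. These genes were chosen after their values were seen.

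Collagen III went against collagen I. COL3A1 stood at 5.78, 4.92 and 6.85 CPM in R4KO_2 Vehicle and at 0.129, 0.287 and 0.155 CPM in KO_2 H151, while COL1A1 rose by 0.38 on the log2 scale (0.12 against R4KO_1 Vehicle, which did not pass), and LUM, a collagen-binding proteoglycan, fell by 3.72. COL3A1 was called higher with the drug in iR4 cells (adjusted p = 0.0443), at 0.647 ± 0.0609 CPM without and 1.03 ± 0.349 with the drug (SD, n = 3).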
